A study of Drosophila melanogaster with 2 samples.

Results

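The 73 genes described here encode proteins of the Drosophila mitochondrial ribosome. They were taken by symbol, as every gene of the deposited feature list whose symbol begins with mRpL or mRpS, and they make up 73 of 17753 listed genes. Mitochondrial ribosomes are built inside the organelle from RNAs of the mitochondrial genome and from proteins that the nucleus encodes, which are made in the cytoplasm and imported. They translate the few messenger RNAs of the mitochondrial genome, whose products are core subunits of the respiratory chain and the ATP synthase, so their supply bears on how much oxidative phosphorylation a cell can assemble. By symbol 47 of the genes belong to the large subunit, which forms peptide bonds, and 26 to the small subunit, which reads the messenger RNA. The numbers of 42 symbols are those of a bacterial ribosomal protein, and the other 31 carry the higher numbers given to proteins without a bacterial counterpart in the naming. In mammals the MRPS18A and MRPS30 proteins were located in the large subunit in spite of their symbols, so the subunit classes used here are classes of symbols.

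The cells came from the larval brain. Neuroblasts (NBs), the neural stem cells of the medulla, pass with age through a cascade of transcription factors and produce different neurons at each step. Both libraries were made from wandering larvae of the third instar grown at 25 °C without treatment, 120 larvae pooled for each experiment, which carried the E(spl)mgammaGFP reporter that marks NBs together with SoxNGal4 UAS-RedStinger, in which the SoxN driver labels medulla cells red, over the TM6B balancer. Cells positive for both fluorescent proteins were sorted and sequenced from the 3′ ends of their messenger RNAs, once in experiment 1 and once in experiment 2. There was no other condition, so the comparisons lie between cell groups of the same libraries. The p-values measure how far differences between cell groups disagree between the 2 libraries of pooled animals. The overall difference between the libraries is taken out by a term in the fit, and the spread between animals is not measured. Sorted cells without dpn were present in both libraries and serve here as the group outside the NBs.

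An NB was a cell with at least 1 UMI of dpn, which encodes the NB transcription factor Deadpan, and with under 10% of its UMIs from mt: genes. A UMI is a counted messenger RNA molecule. There were 776 NBs in experiment 1 and 2298 in experiment 2, with 17040573 and 101323779 UMIs. The mitochondrial limit left out 2836 dpn-positive cells of experiment 1, most of those in that library, and 229 of experiment 2. Each NB was assigned to the stage of the factor most prominent in it, among hth, ey, slp1, D, B-H1, tll and gcm in the order of the cascade, when that factor had at least 2 UMIs. In experiments 1 and 2 respectively, the hth stage held 85 and 102 NBs, ey 103 and 416, slp1 138 and 598, D 98 and 265, B-H1 81 and 285, tll 22 and 98 and gcm 50 and 330, while 199 and 204 NBs had no factor and entered no test between stages. Sorted cells without a dpn UMI and under the same mitochondrial limit, called dpn-negative, numbered 495 and 1844. UMIs were summed per library and group, and levels are CPM, the UMIs of a gene per 1000000 UMIs of the sum. Levels of different genes are compared per captured molecule: a level counts captured 3′ ends and was not divided by gene length.

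The sums differed in depth and in purity. Totals ran from 369643 UMIs in the tll stage of experiment 1 to 32042468 in the ey stage of experiment 2, and the median NB of the hth stage held 8349 UMIs in experiment 1 against 81818 in experiment 2. In the hth stage only 72.9% and 68.6% of cells had a UMI of mira, an NB gene, against 85.5% to 100% at the other stages. The 4 markers of ganglion mother cells and new neurons (pros, nerfin-1, dap and tap) summed to 8710 CPM in the hth stage of experiment 1 and to 794 CPM in that of experiment 2, and the 8 neuron markers to 4048 and 698 CPM, with none of either list at 0. In the gcm stage the same lists summed to 6114 and 4883 CPM and to 4453 and 3496 CPM, with 2 neuron markers at 0 in experiment 1, and in dpn-negative cells to 6686 and 3718 CPM and to 6560 and 5002 CPM, with none at 0. At gcm elav had 4300 and 3389 CPM, and nSyb, another neuron gene, 6.37 and 2.33 CPM. In dpn-negative cells elav had 1403 and 1206 CPM and nSyb 423 and 389 CPM. Of the first list, nerfin-1 had 1783 and 1311 CPM at gcm and pros 1341 and 978 CPM. The paper describes pros, nerfin-1 and dap as expressed in the oldest NBs themselves. That description does not extend to the 8 neuron markers. Whether other cells were present at gcm was not tested. The 5 markers of the neuroepithelium, from which NBs arise, were highest at hth among the stages in both libraries. They summed to 451 and 679 CPM at hth and to 277 and 233 CPM at gcm. The part of these marker levels in the differences between stages was not tested. Values from cells with a mira UMI, and without the hth sum of experiment 1, are given where they change a call. The libraries shared 9 cell barcodes.

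Of the 73 genes, 72 were detected and tested. mRpL53 had 0 UMIs in all groups of both libraries, and in the annotation at hand its exons overlap those of CG33155 on the same strand, so a count of 0 does not show that it was silent. Exons of mRpL13 and mRpS14 likewise overlap CG10602 and CG32533 on the same strand, and reads there may not be attributable to one gene. Summed over all NBs the members gave 3382 CPM in experiment 1 and 4050 CPM in experiment 2, which was 12.3 and 14.9 UMIs for every 1000 UMIs of the 88 cytoplasmic ribosomal protein genes. The levels of single members were close to one another. The highest was 7.67-fold above the lowest of the 72, the median member (mRpL53 included) was at 40.8 CPM in experiment 1 and 51.2 CPM in experiment 2, and 71 and 69 of the 72 were under 100 CPM.

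The members at the top of that range were all but 1 of the large subunit. mRpL33 was the highest, with 142 and 145 CPM in experiments 1 and 2, followed by mRpS14 with 98.1 and 107 CPM, mRpL36 with 91.6 and 100.1 CPM, mRpL34 with 94.9 and 92.9 CPM and mRpL22 with 86.3 and 95.5 CPM. In bacteria L33, L34 and L36 are among the smallest ribosomal proteins, and L22 lines the tunnel through which the new peptide leaves. The lowest detected members were mRpL35 with 16.8 and 20.5 CPM, mRpL3 with 17.3 and 21.4 CPM, mRpL10 with 18.9 and 20.1 CPM and mRpL37 with 17.9 and 23.1 CPM. The 10 highest members together took 26.4% of the members' UMIs in experiment 1 and 24.3% in experiment 2, so no small group of genes carried the sum. Levels were higher in experiment 2 for 69 of the 72, by 1.23-fold at the median, and the ranking of the members was alike in both libraries (Spearman's rho of 0.955 across genes, which share each library and are not independent replicates).

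The summed level of the members was similar from ey to B-H1 and lowest in the oldest NBs. In experiment 1 the sum was 2941 CPM at hth, 3563 at ey, 3492 at slp1, 3594 at D, 3349 at B-H1, 2743 at tll and 2488 at gcm. In experiment 2 it was 4159, 4196, 4099, 4036, 3950, 3653 and 3252 CPM. In both libraries the gcm stage was the lowest, while the order of other stages differed. The hth stage was the third lowest in experiment 1 and next to the highest in experiment 2, and D was the highest in experiment 1 and the fourth in experiment 2. The median single cell showed the same course, with 3275 and 4177 CPM of members at ey and 2355 and 3119 CPM at gcm. In experiment 2 cells also became shallower from ey on, from a median of 82738 UMIs at ey to 16265 at gcm. In experiment 1 depth had no such course. Its medians were 8349 UMIs at hth, 36647 at ey, 15914.5 at slp1, 30948 at B-H1 and 14256 at gcm. Counts from cells thinned to equal UMIs, with shallower cells left out, are given below with the test. Those sums still differ in their number of cells.

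**Figure D1:**
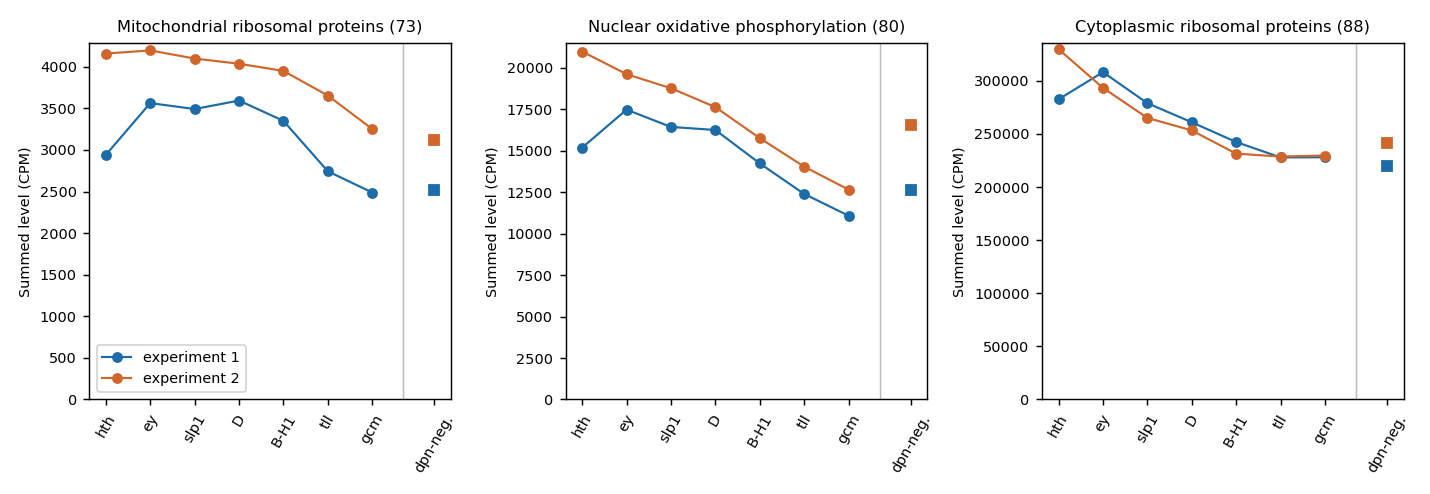
Summed level, in CPM, of the 73 mitochondrial ribosomal protein genes, of 80 nuclear oxidative phosphorylation genes and of 88 cytoplasmic ribosomal protein genes (vertical axes from 0) in the 7 NB stages (circles) and in dpn-negative cells (squares) of each experiment. The members' sum ends lowest among the stages at gcm, at 2488 CPM in experiment 1 and 3252 CPM in experiment 2.

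The sums of 2 neighbouring gene groups are given beside that of the members. The cytoplasmic ribosomal protein genes were already lower at B-H1, going from 308241 and 293456 CPM at ey to 242445 and 231496 CPM at B-H1 and 228084 and 229723 CPM at gcm. Set against them the members were highest at B-H1 in both libraries, with 10.4 and 12.6 member UMIs per 1000 cytoplasmic ribosomal protein UMIs at hth, 13.8 and 17.1 at B-H1 and 10.9 and 14.2 at gcm. The nuclear oxidative phosphorylation genes, which encode the imported subunits of the respiratory chain, went from 17476 and 19615 CPM at ey to 11080 and 12655 CPM at gcm. The share of UMIs from mt: genes, by which cells had been selected, had a median of 4.83 and 5.31% per cell at ey and 4.63 and 4.86% at gcm. No test was made of the difference between these sums.

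The large-subunit symbols took a larger share of the members' UMIs at hth than at gcm. At hth it was 65.6% (95% Wilson interval 64.2 to 67) in experiment 1 and 65.5% (65 to 66) in experiment 2. At gcm it was 62.5% (60.1 to 64.9) and 62.8% (62 to 63.5). The intervals cover counting error only, and they overlap between hth and gcm in experiment 1 and not in experiment 2. The share was 64.9% and 62.7% at tll and 64.3% and 65% in dpn-negative cells, so a high share was not particular to young NBs. With 2 libraries against 2 the smallest exact two-sided p is 0.333, so no such test could pass.

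When each gene was tested for any difference among the 7 stages, 36 of the 72 members passed (edgeR quasi-likelihood F-test, Benjamini-Hochberg adjusted p under 0.05 over all 7831 genes tested), against 55.2% of all genes. The members' share of 50% lay near that of genes in general. Of the 36, 20 were highest at ey and 8 at hth, and 19 were lowest at gcm and 10 at tll. The widest ranges of log2 CPM over stages among them belonged to mRpL23 (2.05), mRpS18B (1.68), mRpL51 (1.68), mRpL20 (1.67) and mRpL27 (1.63). Under other settings the number ran from 3 to 49. It was 3, of 62 members tested, with cells thinned to 2000 UMIs and those with fewer left out. It was 48 without the hth sum of experiment 1 and 49 with phase as a term. The shares of all genes under these settings are not given here.

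The oldest NBs, at gcm, were compared with the youngest, at hth. Of the 72 members 27 were lower at gcm and 10 were higher, against 30.9% of all genes lower and 23.6% higher, and the median member changed by -0.33 on the log2 scale against -0.21 for all genes tested. The members were lower by a median of -0.30 in experiment 1 and -0.48 in experiment 2. Both subunits took part, with 18 of 46 large-subunit genes lower and 5 higher and 9 of 26 small-subunit genes lower and 5 higher. The median was -0.40 for the 42 members with bacterial numbers, of which 18 were lower and 4 higher, and -0.02 for the 30 others, of which 9 were lower and 6 higher. By chromosome arm 6 of 12 members on 2L were lower and 1 higher, 5 of 11 on 2R lower and 0 higher, 6 of 16 on 3L lower and 4 higher, 8 of 21 on 3R lower and 3 higher, and 2 of 11 on X lower and 2 higher, and the arm of mRpS5 was not found in the annotation used here. Between members the change in RNA level ranged from a 4.19-fold fall to a 2.10-fold rise. The lower and upper quartiles of the log2 fold change were -0.67 and 0.10 for the members, against -1.50 and 0.51 for all genes tested.

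**Figure D2:**
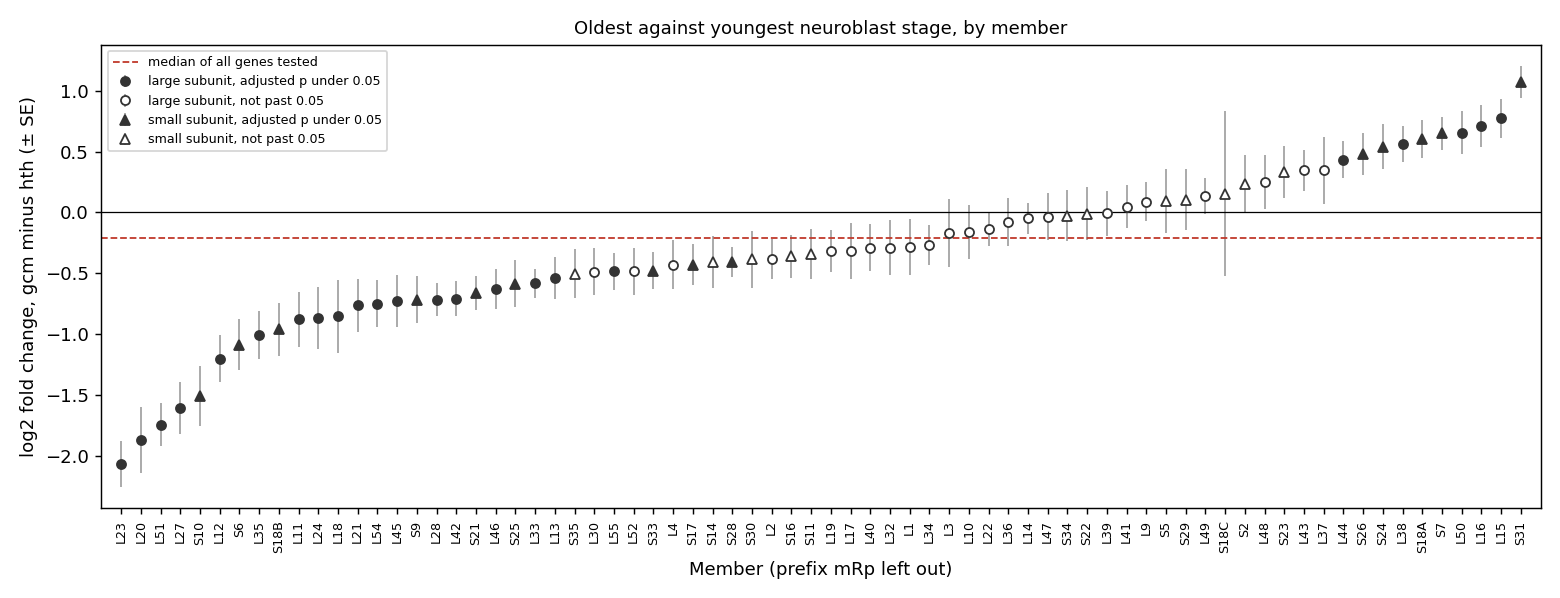
Log2 fold change of each of the 72 tested members between the gcm and the hth stage, with its standard error (derived from the p-value, and inexact near 0), ordered by size (filled, adjusted p under 0.05). The points run from mRpL23 at -2.07 to mRpS31 at 1.07, and the dashed line is the median of all genes tested at -0.21.

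Several large-subunit genes fell furthest. mRpL23, whose bacterial counterpart sits at the exit of the peptide tunnel, had 53.5 and 69.2 CPM at hth, 50.3 and 52.6 at ey, 36.8 and 42.6 at slp1, 45.3 and 40.8 at D, 26 and 33.6 at B-H1, 27.1 and 23.7 at tll and 12.7 and 15.6 at gcm in experiments 1 and 2. Both gcm values lay below the values of every earlier stage (log2 fold change -2.07 ± 0.19 SE, adjusted p = 5.2e-06). mRpL51, a mitochondrion-specific protein by its number, went from 34.8 and 45 CPM at hth through 28.8 and 29.4 at slp1 and 20.6 and 23.5 at B-H1 to 11.1 and 12.6 at gcm (log2 fold change -1.75 ± 0.18 SE, adjusted p = 1.1e-05). In both genes the decline was spread over the cascade, and no step between neighbouring stages passed the test.

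mRpL20 and mRpL35 passed the test at the first step too, which was not compared with the first step of other members. mRpL20, whose bacterial counterpart is needed early in assembly of the large subunit, had 31.5 and 47.1 CPM at hth, 19.8 and 25.2 at ey and 12.7 and 11 at gcm (log2 fold change -1.87 ± 0.27 SE, adjusted p = 1.4e-04). mRpL35 had 33.5 and 37.1 CPM at hth, 18.5 and 20.8 at ey and 14.3 and 19.4 at gcm (log2 fold change -1.01 ± 0.20 SE, adjusted p = 0.0013). These were the members that fell between hth and ey, by 0.76 (SE 0.21, adjusted p = 0.02) for mRpL20 and 0.77 (SE 0.17, adjusted p = 0.0069) for mRpL35 on the log2 scale. With ey as the youngest stage mRpL35 no longer passed between ey and gcm (log2 fold change -0.24, adjusted p = 0.36), while mRpL20 did (-1.11, adjusted p = 0.0053).

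mRpL27, whose bacterial counterpart lies near the site of peptide bond formation, had 74.3 and 119 CPM at hth, 79.5 and 78.1 at D and 23.9 and 35.7 at gcm (log2 fold change -1.61 ± 0.21 SE, adjusted p = 7.2e-05). mRpL12 and mRpL11, whose bacterial counterparts form the stalk and its base, to which elongation factors bind, also fell. mRpL12 went from 68.3 and 119.6 CPM at hth to 27.1 and 49.6 at gcm (log2 fold change -1.20 ± 0.20 SE, adjusted p = 3.5e-04) and mRpL11 from 26.8 and 34.3 CPM at hth to 6.37 and 21.4 at gcm (log2 fold change -0.88 ± 0.23 SE, adjusted p = 0.0068). For mRpL27 and mRpL12 the groups did not overlap. In all 24 members had both hth values above both gcm values and 7 had them below, and the share over all genes is not given here. For mRpL11 the gcm level in experiment 2 was closer to hth than that in experiment 1. The gcm sum of experiment 1 held 628094 UMIs of all genes, so its low levels rest on few UMIs. The stalk protein that carries mRpL12 in bacteria, mRpL10 by its number, had 23.4 and 23.9 CPM at hth and 23.9 and 19.9 CPM at gcm, which did not pass (log2 fold change -0.16 ± 0.23 SE, adjusted p = 0.57).

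In the small subunit mRpS10, mRpS6 and mRpS18B fell most. mRpS10 had 38.8 and 79.7 CPM at hth, 47.6 and 48.2 at ey, 25.3 and 38.6 at D and 15.9 and 24.4 at gcm (log2 fold change -1.51 ± 0.25 SE, adjusted p = 3.5e-04), and its hth levels differed between the libraries by more than its ey levels. mRpS6 had 41.5 and 63.5 CPM at hth and 20.7 and 27.5 at gcm (log2 fold change -1.09 ± 0.21 SE, adjusted p = 0.0011). In bacteria S6 and S18 bind the small-subunit platform as a pair, and Drosophila has 3 genes for relatives of S18, which took different courses. mRpS18B had 25.4 and 40.0 CPM at hth, 35.7 and 56.3 at D and 7.96 and 22.1 at gcm (log2 fold change -0.96 ± 0.22 SE, adjusted p = 0.0029). mRpS18A had 50.2 and 63.8 CPM at hth, 94.8 and 106 at D and 97.1 and 81.5 at gcm (log2 fold change 0.60 ± 0.16 SE, adjusted p = 0.0075). mRpS18C had 21.4 and 37.8 CPM at hth, 44.2 and 52.4 at D and 31.8 and 36.8 at gcm (log2 fold change 0.15, adjusted p = 0.87). All 3 were higher at D than at hth in both libraries, and at gcm mRpS18B lay below its hth levels, mRpS18A above them and mRpS18C within their range. The differences between the 3 genes were not tested.

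The 10 members that were higher at gcm came from both subunits. mRpS31, a small-subunit protein without a bacterial counterpart, had 30.8 and 36.4 CPM at hth, 36.7 and 50.2 at ey, 38.9 and 54.3 at slp1, 48.3 and 59.1 at D, 55.6 and 64.3 at B-H1, 54.1 and 69.1 at tll and 57.3 and 78.8 at gcm (log2 fold change 1.07 ± 0.13 SE, adjusted p = 5.0e-05). It was the only member past the test in the upward direction when gcm was compared with ey (log2 fold change 0.62, adjusted p = 0.0017). mRpL15 had 26.8 and 33.2 CPM at hth and 55.7 and 50.5 at gcm (log2 fold change 0.77 ± 0.16 SE, adjusted p = 0.0016), mRpL16 46.8 and 70.8 CPM at hth and 93.9 and 101 at gcm (log2 fold change 0.71 ± 0.17 SE, adjusted p = 0.0046) and mRpS7, which in bacteria starts assembly of the small-subunit head, 39.5 and 50.6 CPM at hth and 63.7 and 75.4 at gcm (log2 fold change 0.65 ± 0.13 SE, adjusted p = 0.0017). In these 3 genes, which were named for their rise in this same comparison, the groups did not overlap. Each of the 3 also rose at the first step. Between hth and ey mRpL15 rose by 0.56 (SE 0.14, adjusted p = 0.013), mRpL16 by 0.48 (SE 0.16, adjusted p = 0.042) and mRpS7 by 0.49 (SE 0.12, adjusted p = 0.012) on the log2 scale. The other rises were those of mRpL50 at 0.66, mRpL38 at 0.56, mRpS24 at 0.54, mRpS26 at 0.48 and mRpL44 at 0.43. The levels of mRpL44, a protein with a domain related to ribonuclease III, overlapped between hth (58.9 and 45.8 CPM) and gcm (55.7 and 70.9 CPM).

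**Figure D3:**
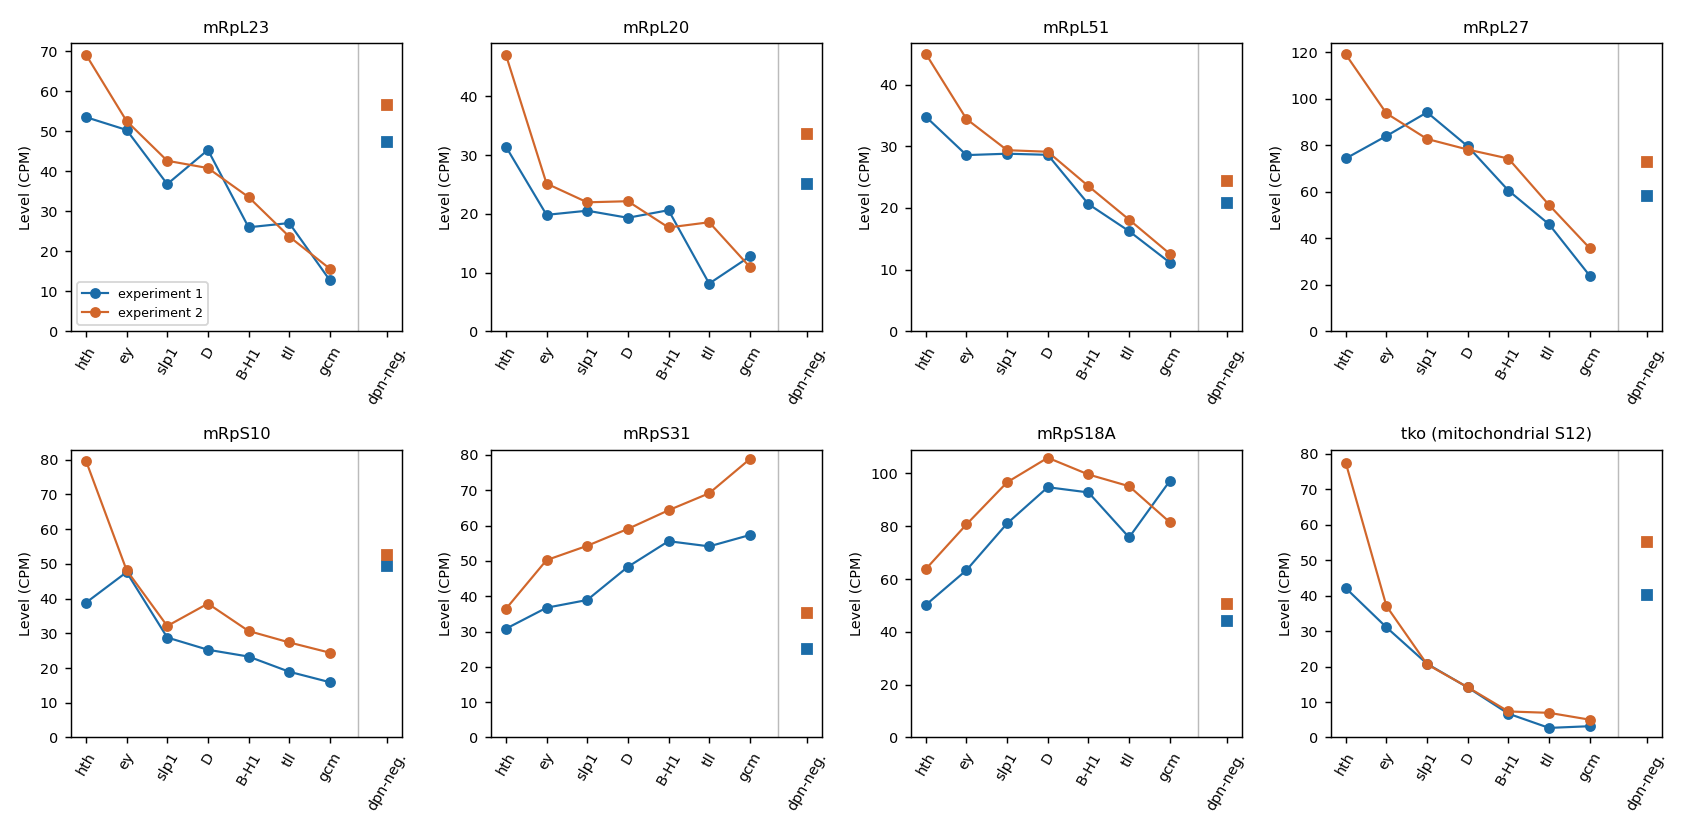
Level in CPM (vertical axes from 0) by stage and in dpn-negative cells of mRpL23, mRpL20, mRpL51, mRpL27, mRpS10, mRpS31, mRpS18A and tko, with 1 line for each experiment. mRpL23 ends at 12.7 and 15.6 CPM and tko at 3.18 and 5.03 CPM at gcm, whereas mRpS31 reaches 57.3 and 78.8 CPM, and the dpn-negative levels of mRpL23 (47.4 and 56.5 CPM) are close to those at hth.

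Leaving out the hth sum of experiment 1, in which neuron markers were high, raised the number of members lower at gcm. The shares of all genes under this and other settings of the gcm comparison are not given here. Changes in these counts may therefore not be particular to the members. Without it 38 members were lower and 8 higher, with a median of -0.45, and among the 20 members named here only mRpS24 and mRpS26 no longer passed (adjusted p = 0.07 and 0.058). In cells with a mira UMI mRpS26 no longer passed (adjusted p = 0.084) and mRpS24 lay at the threshold (adjusted p = 0.0503). With cells thinned to 2000 UMIs and those with fewer left out, which leaves far fewer counts, 5 members were lower and 1 higher. The median was then -0.44. Without the replicate block, that is without a term for the library, 12 were lower and 6 higher. With ey as the youngest stage 34 members were lower and 1 higher, with a median of -0.41, and 9 of the 10 rises did not pass. Between consecutive stages, 13 members were higher at ey than at hth and 2 lower, against 11.9% of all genes higher and 15.9% lower. At the other 5 steps 0 of the 72 members passed in edgeR, and at most 0.958% of all genes passed. From 1 to 9 members had an unadjusted p under 0.05 there, and the share of all genes at that limit is not given here.

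Another pair of genes encode mitochondrial ribosomal proteins without carrying the prefix, and they were outside the 73. tko encodes the mitochondrial S12 protein, at the decoding site of the small subunit, and its mutants are known for seizures after mechanical shock. It had 42.2 and 77.5 CPM at hth, 31.1 and 37.1 at ey, 20.8 and 20.6 at slp1, 14.1 and 14.2 at D, 6.72 and 7.35 at B-H1, 2.71 and 6.96 at tll and 3.18 and 5.03 at gcm, the last from 2 UMIs in experiment 1 and 28 in experiment 2. The fall of 13.6-fold was larger than that of any member (log2 fold change -3.77 ± 0.30 SE, adjusted p = 2.5e-06), and the levels at slp1 and D were nearly equal in both libraries. bonsai, which encodes the mitochondrial S15 protein, had 52.2 and 67.8 CPM at hth and 23.9 and 38.8 CPM at gcm (log2 fold change -0.85 ± 0.12 SE, adjusted p = 1.7e-04). Neither gene shares exons on its strand with another gene in the annotation used here.

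tko and bonsai were entered in a list of 31 genes that act with the mitochondrial ribosome, including its initiation, elongation and release factors and the mitochondrial aminoacyl-tRNA synthetases. Of the 30 tested, 13 were lower at gcm than at hth and 2 higher, with a median of -0.70, against 30.9% and 23.6% of all genes. The elongation factor gene mEFTs had 84.3 and 108 CPM at hth and 46.2 and 46 at gcm (log2 fold change -1.05 ± 0.15 SE, adjusted p = 1.3e-04). The initiation factor gene mIF3 had 12 and 17.8 CPM at hth and 1.59 and 1.97 at gcm (log2 fold change -3.03 ± 0.49 SE, adjusted p = 3.1e-04), and MetRS-m, which charges the initiating methionine tRNA, 13.4 and 16 CPM at hth and 1.59 and 2.15 at gcm (log2 fold change -2.95 ± 0.34 SE, adjusted p = 2.8e-05). The gcm levels rest on 1 and 11 UMIs of mIF3 and 1 and 12 of MetRS-m. mRRF1, a ribosome recycling factor by name, had 10.7 and 24.2 CPM at hth and 0 and 0.359 CPM at gcm. The other direction was taken by AspRS-m, with 80.3 and 48.3 CPM at hth and 111 and 124 at gcm (log2 fold change 1.02 ± 0.18 SE, adjusted p = 6.0e-04), and by ProRS-m, with 11.4 and 11.4 CPM at hth and 17.5 and 25.3 at gcm (log2 fold change 0.99 ± 0.30 SE, adjusted p = 0.015).

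Of 11 tested genes for the upkeep and transcription of the mitochondrial genome 1 passed, against 54.5% of all genes in either direction. It was TFAM, whose protein packages mitochondrial DNA and which had 57.6 and 92.1 CPM at hth and 140.1 and 141 CPM at gcm (log2 fold change 0.90 ± 0.16 SE, adjusted p = 6.9e-04). Of 8 regulators linked to nuclear mitochondrial genes, 4 were lower and 4 higher at gcm, against 30.9% and 23.6% of all genes. Among them srl, the Drosophila relative of PGC-1, had 63.6 and 68.9 CPM at hth and 46.2 and 45.6 at gcm (log2 fold change -0.50 ± 0.14 SE, adjusted p = 0.01), ewg, the relative of NRF-1, 81 and 32.9 CPM at hth and 204 and 177 at gcm (log2 fold change 1.96 ± 0.24 SE, adjusted p = 4.6e-05) and Ets97D, the relative of GABPA, 15.4 and 16.1 CPM at hth and 31.8 and 30.3 at gcm (log2 fold change 0.98 ± 0.21 SE, adjusted p = 0.0025). Myc, a driver of growth and ribosome synthesis, had 253 and 234 CPM at hth and 178 and 109.7 at gcm (log2 fold change -0.80 ± 0.24 SE, adjusted p = 0.015), and Dref, a regulator of replication genes, 36.1 and 30.3 CPM at hth and 252 and 213 at gcm (log2 fold change 2.87 ± 0.18 SE, adjusted p = 6.8e-07). Of the 84 cytoplasmic ribosomal protein genes tested 56 were lower at gcm and 0 higher, with a median of -0.39, against the same shares of all genes, and of 65 nuclear oxidative phosphorylation genes 40 were lower and 4 higher, with a median of -0.50.

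Sorted dpn-negative cells were then set against the mean of the 7 NB stages. This comparison uses the same stage sums as that of gcm with hth, so both are given side by side and not as independent results. Of the 72 members 37 were lower in dpn-negative cells and 4 higher, against 26.3% of all genes lower and 35% higher, and the median member changed by -0.32 against 0.03 for all genes tested. The median was -0.30 in each experiment. In the small subunit 17 of 26 genes were lower and 1 higher, with a median of -0.42, and in the large subunit 20 of 46 were lower and 3 higher, with a median of -0.24. The summed members had 2523 and 3125 CPM in dpn-negative cells and 3382 and 4050 CPM in NBs. These and the NB levels below are of all NBs pooled, including those without a stage. The fold changes are against the mean of the 7 stages, weighted alike, so they can differ from ratios of the printed levels. The dpn-negative cells were shallow, with medians of 2525 and 978 UMIs against 9845 and 37671 in NBs, 45.9 and 18.5% of them had a mira UMI, and their neuron markers were high, as given above. Without the hth sum of experiment 1 the counts were 44 lower and 5 higher. With cells thinned to 2000 UMIs and those with fewer left out, they were 5 lower and 3 higher, with a median of -0.12. The dpn-negative median of 978 UMIs lies under that limit, so most dpn-negative cells of that library were left out. The thinned setting therefore compares a different set of dpn-negative cells. Whether fewer NB-like cells or less RNA of these genes per cell made the difference cannot be told apart.

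mRpL45 differed most. Its mammalian counterpart anchors the ribosome to the inner membrane beside the peptide exit. It had 14 and 16.1 CPM in dpn-negative cells and 35.8 and 48.6 CPM in NBs (log2 fold change -1.33 ± 0.16 SE, adjusted p = 2.2e-05). In each library the dpn-negative level lay below all 7 stages, the lowest of which was gcm with 14.3 and 29.6 CPM. In experiment 1 the dpn-negative and gcm levels were nearly equal, at 14.04 and 14.33 CPM. mRpL16 had 39.8 and 54.9 CPM in dpn-negative cells and 77.9 and 95.7 in NBs (log2 fold change -0.88 ± 0.13 SE, adjusted p = 9.4e-05), mRpL38 22.4 and 26.3 CPM in dpn-negative cells and 38.4 and 47.8 in NBs (log2 fold change -0.83 ± 0.11 SE, adjusted p = 3.3e-05) and mRpL46 18.2 and 19.1 CPM in dpn-negative cells and 35.1 and 39.6 in NBs (log2 fold change -0.74 ± 0.12 SE, adjusted p = 1.7e-04). In mammals the counterparts of mRpL38 and mRpL46 belong to the central protuberance of the large subunit. In the small subunit mRpS18A had 44 and 50.6 CPM in dpn-negative cells and 75.7 and 89.5 in NBs (log2 fold change -0.80 ± 0.12 SE, adjusted p = 9.1e-05), mRpS14 45.2 and 56.6 CPM in dpn-negative cells and 98.1 and 107 in NBs (log2 fold change -0.78 ± 0.16 SE, adjusted p = 9.2e-04) and mRpS31 25 and 35.3 CPM in dpn-negative cells and 41.7 and 54.7 in NBs (log2 fold change -0.74 ± 0.10 SE, adjusted p = 3.7e-05). Smaller falls named by the same rule were those of mRpL43 at -0.69, mRpL34 at -0.69 and mRpL37 at -0.64. For each of the 7 genes with levels given here, both dpn-negative values lay below both NB values. These genes were named for their large falls in this same comparison. In all 46 members had both dpn-negative values below both NB values and 5 had them above, and the share over all genes is not given here.

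The 4 members that were higher in dpn-negative cells were mRpL35, mRpS10, mRpL23 and mRpL20. With a mitochondrial limit of 20%, or with 4 sums of all dpn-positive and dpn-negative cells, mRpL35 still passed (adjusted p = 0.0062 and 0.03) and the other 3 did not (adjusted p = 0.11 to 0.15 and 0.063 to 0.20). mRpL35 had 28.8 and 35 CPM in dpn-negative cells and 16.8 and 20.5 CPM in NBs (log2 fold change 0.79 ± 0.13 SE, adjusted p = 1.7e-04). mRpS10 had 49.3 and 52.6 CPM in dpn-negative cells and 33.5 and 40.7 in NBs (log2 fold change 0.66 ± 0.15 SE, adjusted p = 0.0028), mRpL23 47.4 and 56.5 CPM in dpn-negative cells and 41.1 and 44.6 in NBs (log2 fold change 0.61 ± 0.11 SE, adjusted p = 4.3e-04) and mRpL20 25 and 33.6 CPM in dpn-negative cells and 20.5 and 23.7 in NBs (log2 fold change 0.58 ± 0.16 SE, adjusted p = 0.0078). Their dpn-negative levels lay between the hth and the gcm levels, or above hth in experiment 1 for mRpS10. tko had 40.2 and 55.2 CPM in dpn-negative cells against 22.3 and 26.8 CPM in all NBs pooled. Against the mean of the stages, in which tll and gcm weigh as much as larger stages, its log2 fold change was 1.79 ± 0.15 SE (adjusted p = 1.0e-06). Beside these, the fold changes of the 4 members from hth to gcm, from the same stage sums, were -1.01, -1.51, -2.07 and -1.87 on the log2 scale. Under the same comparisons mRpS31 had -0.74 in dpn-negative cells and 1.07 at gcm, and mRpL45 -1.33 and -0.73.

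**Figure D4:**
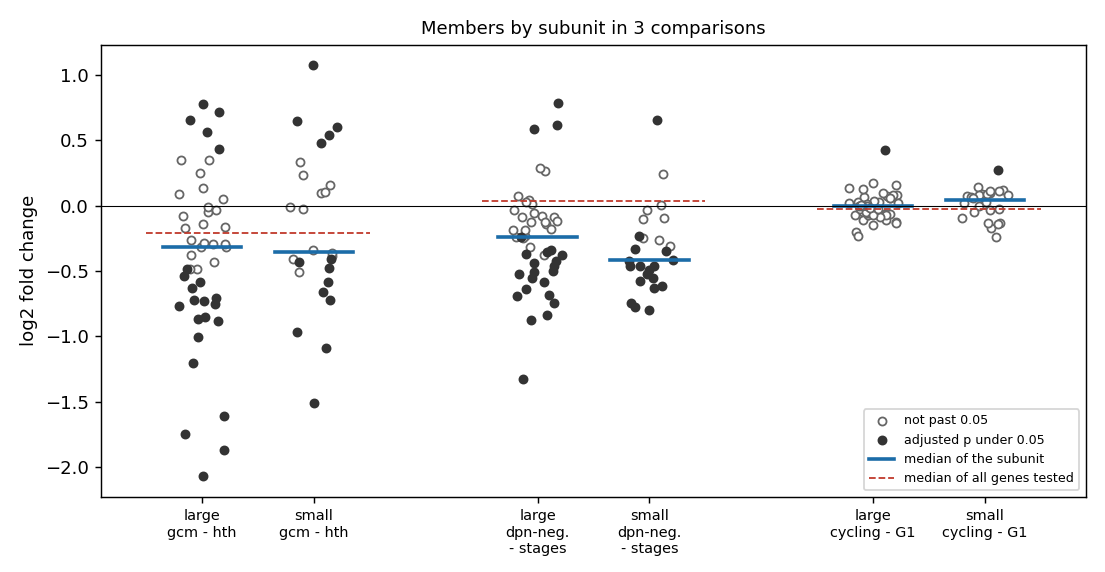
Log2 fold change of the members by subunit in the 3 comparisons (filled, adjusted p under 0.05), with the median of each subunit and, dashed, of all genes tested. In dpn-negative cells the subunit medians are -0.24 and -0.42 against 0.03 for all genes, and between cycling and G1 cells 2 members are filled.

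The last comparison asked whether the members followed the cell cycle. Phases were scored from 29 S and 37 G2/M genes, and the mean of S and G2/M was compared with G1 within stages. Of the 72 members 2 were higher in cycling NBs and 0 lower, against 7.46% of all genes higher and 8.37% lower. At an unadjusted p under 0.05 there were 7 of the 72 members, against 1809 of the 6312 genes tested. The median member changed by 0.01, against -0.03 for all genes tested. mRpL9 had 20.5 and 28.9 CPM in G1, 32.6 and 44.2 in S and 24.3 and 35.6 in G2/M (log2 fold change 0.42 ± 0.09 SE, adjusted p = 0.0013), and mRpS18A 52.5 and 73 CPM in G1, 81.9 and 98.2 in S and 79.4 and 90.5 in G2/M (log2 fold change 0.27 ± 0.07 SE, adjusted p = 0.0091). In both genes S was the highest phase in both libraries. Without the replicate block neither passed, and DESeq2 called 2 members lower, where the share of all genes is not given here. The summed members had 3246 and 3926 CPM in G1, 3594 and 4215 in S and 2961 and 3793 in G2/M, and their order followed S, G1 and G2/M in each library. In the same fit 45 of 84 cytoplasmic ribosomal protein genes were lower in cycling NBs and 0 higher, with a median of -0.13. Cells called G1 were shallower than those called S, with medians of 3258 and 42326 against 18322 and 48962 UMIs, and fewer of them had a mira UMI (62.1 and 81% against 95.2 and 96.4%). The part of these differences in the comparison was not tested.

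Finally, genes outside the set were ranked by how closely their level over the 14 stage sums followed that of the summed members, after centring each library, among 4033 genes of at least 20 CPM. The closest were Nedd8 (Pearson's r of 0.98), which encodes a ubiquitin-like modifier, CG10638 (0.97), CG12107 (0.97), MAGE (0.97), Psf2 (0.97), a subunit of the GINS replication complex, CG4686 (0.97), dj-1beta (0.96), a relative of the human Parkinson disease gene PARK7, Dis3 (0.96), the nuclease of the RNA exosome, CG6523 (0.96) and CG3176 (0.96). The 14 points share 2 libraries and their depths, and the ranking is a description.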

How the data were processed

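Both libraries were deposited as tables of raw UMI counts per gene and cell, made by the authors with Cell Ranger (3.0.1 for experiment 1 and 3.1.0 for experiment 2 per the file headers) on the BDGP6 build; Seurat 3.2.3 is named in the submitters' processing notes and its output was not used here. Counts were used without rounding or correction. The 5 cells with most UMIs were removed, as was every cell with 10% or more mt: UMIs, and no doublet caller or correction for free RNA was run. A stage was the factor with at least 2 UMIs whose CPM was largest relative to its 90th percentile in the same library. Sums of at least 10 cells entered edgeR 4.0.16 (R 4.3.3; filterByExpr, TMM, quasi-likelihood F-tests, Benjamini-Hochberg over all genes tested): 16 sums with a term for each stage or dpn-negative group and for the library, and 35 sums of stage and phase with an added phase term. A library is one pool of animals, so its sums pair by origin; the library difference of any pair of stages correlated at 0.115 to 0.535 over 7831 genes. Fold changes are log2, and SEs were derived from the fold change and its p-value, which is inexact for changes near 0. Phases were called with scanpy 1.11.5 from the study's 29 S and 37 G2/M genes in NBs of each library, on values scaled per gene, a step added after unscaled values put nearly all cells in G2/M. The scripts were tested on simulated data. Named members were, for each comparison, up to 10 in each direction with the largest called fold change and the same direction in both libraries; the 5 highest, the 5 lowest and the 5 of widest range; other named genes came from the lists. The members and lists were chosen with earlier results of these data known. Chromosome arms and exon overlaps came from Ensembl's annotation, a later release than that of the files. DESeq2 1.42.0 served as an alternative.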

Additional observations from a re-analysis of the deposited data

Results flagged for a closer look

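Cells with 10% or more of their UMIs from mt: genes entered no comparison, and the members were detected in them. Among dpn-positive cells of this kind the summed members had 3514 CPM in experiment 1 (2836 cells) and 2258 CPM in experiment 2 (229 cells). In dpn-negative cells over the same limit they had 2838 CPM in experiment 1 (2440 cells) and 1353 CPM in experiment 2 (968 cells). The median share of mt: UMIs was 13.7% and 24.3% in the dpn-positive and 15.0% and 23.9% in the dpn-negative cells. In experiment 1 both sums lay above those of cells under the limit (3382 and 2523 CPM), and in experiment 2 both lay below (4050 and 3125 CPM). No control group without these genes exists, and the values are given as measured.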

How the results depend on the processing

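The median change of the members from hth to gcm stayed negative under every alternative tried, at -0.41 with DESeq2, -0.25 without cytoplasmic ribosomal and mt: genes, -0.44 with cells thinned to 2000 UMIs, -0.41 with ey as the youngest stage and -0.45 without the hth sum of experiment 1. Leaving out either library gave -0.41 to -0.32. The median in dpn-negative cells was -0.20 with DESeq2, -0.12 thinned, -0.46 from 4 sums of all dpn-positive and dpn-negative cells, and -0.38 to -0.29 with either library left out. The median between cycling and G1 cells was -0.17 to 0.052 with either library left out.

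Counts moved more. Without the replicate block, that is with no term for the library, 14 members passed across stages, 12 were lower and 6 higher at gcm, 18 were lower in dpn-negative cells, and 0 were higher in cycling cells. Thinning to 2000 UMIs left out cells with fewer UMIs and left fewer counts in every sum. It gave 3 across stages, 5 lower and 1 higher at gcm, 5 lower in dpn-negative cells and 0 higher in cycling cells. In cells with exactly 1 factor, a smaller set of cells, the numbers were 14 across stages, 5 higher at gcm, 17 lower in dpn-negative cells and 1 higher in cycling cells. With ey as the youngest stage 1 was higher at gcm. DESeq2 gave 23 lower in dpn-negative cells and 2 lower in cycling cells. A mitochondrial limit of 20% gave 1 higher in dpn-negative cells and 4 higher in cycling cells, and the 4 pooled sums gave 1 higher in dpn-negative cells. Other than by construction, the cause of these shifts was not tested.

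For single genes, the direction turned for mRpL44 (-0.21, adjusted p = 0.72) and mRpS18A (-0.00923, adjusted p = 0.99) between hth and gcm when thinned, and for mRpS26 with ey as the youngest stage (-0.00332, adjusted p = 1). The settings that leave out the hth or the tll sum of experiment 1 were chosen after seeing the data. Depth limits the tll and gcm stages of experiment 1 most, where the members had 1014 and 1563 UMIs in all.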

Other observations

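NBs in which no factor reached 2 UMIs belonged to no stage. There were 199 of them in experiment 1 and 204 in experiment 2, with medians of 2447 and 2490 UMIs, and the summed members had 2846 CPM in experiment 1 and 3810 CPM in experiment 2. The large-subunit symbols took 65.5% and 63.5% of the members' UMIs there.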
